A study of Rattus norvegicus with 6 samples.

Results

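The 10 genes described here are the FAT cadherin genes Fat1, Fat2, Fat3 and Fat4, the Dachsous gene Dchs1, and the planar cell polarity genes Celsr1, Celsr2, Celsr3, Vangl1 and Vangl2, out of 27217 genes in the table. They were listed by name, each matched 1 gene of the table by symbol, and the list was drawn up with the normalized counts of these libraries known. Their levels in RCS cells and rib tissue are therefore given as a description, without a test. RNA sequencing covered 3 libraries of RCS cells, a chondrocyte-like cell line derived from a rat chondrosarcoma, and 3 libraries of neonatal rat rib. No treatment or genetic change is named for either group. A rib piece can hold cartilage, bone, muscle, vessels and nerve beside chondrocytes, and RCS cells are a single tumour-derived line.

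FAT4 and DCHS1 are giant cadherins that bind each other across cell borders, and this pair passes on both tissue polarity and growth signals. The core planar cell polarity proteins, among them the seven-pass cadherins CELSR1 to CELSR3 and the four-pass membrane proteins VANGL1 and VANGL2, sort to opposite sides of a cell and so align neighbouring cells within a tissue. In cartilage, planar polarity signalling through WNT5A, ROR2 and VANGL2 is known for the orientation and stacking of growth plate chondrocytes, and mice without Fat4 or Dchs1 have skeletal defects that include a misshapen sternum.

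The genes parted by paralogue. RCS cells held Fat1 (except under cyclic loess normalization, where the groups overlapped) and Vangl1 at levels above rib tissue. They kept Fat4 and Celsr2 at reduced levels (3.91-fold and 4.33-fold below rib tissue on the deposited scaling). Dchs1, Fat3, Celsr1 and Vangl2 were at or near 0 in RCS cells, while rib tissue expressed all of the genes named here.

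The start regions of a few of these genes are shown because they belong to members with contrasting levels: Fat4 (lower in RCS cells than in rib tissue), Vangl2 (seen in rib tissue only), Celsr3 (low in both) and Fat2 (at or near 0 in both). The sequences are from RefSeq, build GRCr8, where 7 of the 10 genes had an entry. Each is read 5′ to 3′ on the gene's strand, ends at the base before the outermost annotated start, and has its CpG dinucleotides in capitals. They lie at chr2:123855039-123855288 (plus strand) for Fat4, chr13:87021771-87022020 (minus strand) for Vangl2, chr8:118408886-118409135 (plus strand) for Celsr3 and chr10:39957028-39957152 (minus strand) for Fat2.
Fat4: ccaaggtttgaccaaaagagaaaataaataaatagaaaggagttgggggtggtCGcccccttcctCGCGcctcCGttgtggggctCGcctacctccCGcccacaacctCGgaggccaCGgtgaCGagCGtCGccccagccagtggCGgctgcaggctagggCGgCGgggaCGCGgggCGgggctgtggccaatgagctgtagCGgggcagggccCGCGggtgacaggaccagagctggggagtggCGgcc
Vangl2: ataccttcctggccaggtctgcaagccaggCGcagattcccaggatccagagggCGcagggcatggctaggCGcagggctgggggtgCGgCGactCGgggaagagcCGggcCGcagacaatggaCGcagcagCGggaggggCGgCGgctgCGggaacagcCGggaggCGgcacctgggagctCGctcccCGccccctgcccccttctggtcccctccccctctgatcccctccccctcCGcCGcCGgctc
Celsr3: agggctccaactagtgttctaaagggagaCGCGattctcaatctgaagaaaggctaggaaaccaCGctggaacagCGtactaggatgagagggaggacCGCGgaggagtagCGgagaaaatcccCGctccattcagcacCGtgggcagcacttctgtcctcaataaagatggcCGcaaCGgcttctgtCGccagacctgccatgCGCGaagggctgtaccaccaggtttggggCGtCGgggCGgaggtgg
Fat2: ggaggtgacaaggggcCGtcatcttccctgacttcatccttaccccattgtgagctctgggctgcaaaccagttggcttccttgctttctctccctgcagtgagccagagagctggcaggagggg

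In the 250 bases before the listed start, Fat4 held 21 CpGs, Vangl2 20, Celsr3 17 and Fat2 2, against a median of 5 over 33469 rat promoter entries. The listed start of Fat2 lies 125 bases inside the gene's outermost start, so only 125 bases of its window are printed above, with 1 CpG. The listed starts of Fat1, Celsr2 and Fat3 (2 entries) lie further inside, by 566, 307, 439 and 1207 bases, so these windows do not reach the sequence before the gene. They held 17, 32, 23 and 10 CpGs. The motif GGGCGG (a GC box, searched on both strands, which itself contains a CpG) was present 3 times before Fat4, 2 times before Vangl2 and 1 time before Celsr3. It was not found in this window of Fat1, Fat2, Fat3 or Celsr2, and 30.5% of all entries held it. ACAAT, which lies within motifs known for SOX factors and shares no overlap with GGGCGG, occurred 1 time each before Vangl2 and Fat2 on either strand, and in 30.0% of all entries. CpG counts above that median were thus found both before Fat4, present at a reduced level in RCS cells, and before Vangl2, listed at 0 there.

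Levels are given as normalized counts or as log2(normalized count + 1), with mean ± SD over n = 3 libraries. A normalized count was read as reads on a gene divided by 1 factor per library. Numbers of reads are estimates from that factor, and 38.7% to 55.6% of values up to 10 reads came within 0.01 of a whole read. A positive difference means higher in RCS cells, and its SE follows it. No length correction was applied, and levels are compared only within a gene. The depth estimated from the values was 6000000 to 8520000 reads for the RCS libraries and 5320000 to 7490000 for the rib libraries. A gene listed at 0 has a normalized count of 1 at most, which is 0.975 to 1.93 reads depending on the library. The 10 genes together took 0.216% to 0.247% of the counts in RCS cells and between 0.235% and 0.251% in rib tissue. The design text calls the libraries biological replicates without naming cultures or animals, so the spread shown is that between these libraries.

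Markers of the labelled tissue and of other cell types were read in the same libraries. All 10 chondrocyte markers, such as Col2a1, Acan and Sox9, were above 0 in every library, and their summed normalized count was 64261 to 86560.2 in the RCS libraries against 112239 to 184439 in those of the rib. Of these 10, 2 lay below rib tissue without overlap, 2 (Matn1 and Comp) above and the others overlapped. For Comp the lowest RCS value (2991.2) was close to the highest rib value (2911.8). Col2a1 alone was at 10780.0 to 16801 against 55595 to 112920 normalized counts. RCS cells lay below rib tissue with no overlap for 9 of 10 fibroblast and perichondrium markers (summed 775.5 to 801.9 against 46669.6 to 86437), 9 of 9 muscle markers (177 to 212 against 22728 to 40085), 8 of 8 endothelial markers (24.5 to 51.4 against 2521 to 4051), 8 of 8 myeloid markers (26.9 to 39.3 against 1178 to 2221), 6 of 7 Schwann and nerve markers (275 to 325 against 1605 to 2360.5) and 5 of 8 osteoblast markers (2470.6 to 2851 against 21613 to 49013). Most of the osteoblast sum in rib tissue was Col1a1 (19017 to 43561), which the fibroblast list holds too. Runx2 lay above rib tissue in RCS cells, but its lowest RCS value (1157.4) nearly equalled its highest rib value (1151.7). Defining markers listed at 0 in every RCS library included Dcn and Prrx1, Myog, Cdh5 and Kdr, Ptprc and C1qa. In these bulk samples, fewer cells of a type and less RNA per cell cannot be told apart, and the part of these cell types in the rib levels of the polarity genes was not tested.

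Fat1 encodes an atypical cadherin whose tail binds actin regulators of the Ena/VASP family. Its normalized counts were 8866, 8173 and 7021 in replicates 1, 2 and 3 of the RCS cells and 6123, 6248 and 6383 in those of the rib. Every RCS library thus lay above every rib library, with the RCS libraries spread more widely. The level was 12.96 ± 0.17 against 12.61 ± 0.03 (SD, n = 3), a difference of 0.35 (SE 0.10) or 1.28-fold. The size rested on the scaling, at 0.30 after scaling to the library median and 1.58 after quantile normalization. Cyclic loess turned it to -0.06 with overlapping groups, so the direction of Fat1 rested on the scaling too. When these last 2 scalings were run on the tested genes only, a form chosen after those values were seen, cyclic loess gave 0.94 and quantile normalization 1.58.

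Fat4, the receptor-like partner of DCHS1, was present in both groups. Normalized counts were 1081.5, 947 and 1008 in RCS cells and 3922, 4049 and 3890.4 in rib tissue. The highest RCS library held well under the lowest rib library, and the rib libraries differed by no more than 0.06 on the log2 scale. The level was 9.98 ± 0.10 against 11.95 ± 0.03 (SD, n = 3), a difference of -1.97 (SE 0.06), 3.91-fold higher in rib tissue. Under the other scalings the difference was -2.35 (cyclic loess) to -1.45 (quantile normalization).

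Dchs1, which encodes the ligand-like cadherin bound by FAT4, was listed at 1.09, 0 and 0 normalized counts in the RCS libraries, the first being 2 reads. Rib tissue held 2381, 1988 and 1701. The RCS value was thus at the limit of what is listed in a gene that carried 1701 to 3141 reads in each rib library. On the log2 scale the levels were 0.35 ± 0.61 and 10.97 ± 0.24 (SD, n = 3), a difference of -10.62 (SE 0.38), whose size depends on the added count of 1 and was -13.10 with 0.1 added instead. Fat4 counts were thus found in RCS cells with next to no Dchs1 counts: Dchs1 made 30.4% to 37.8% of the summed Fat4 and Dchs1 counts in the rib libraries and 0% to 0.101% in the RCS libraries.

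Fat3, a FAT cadherin best known from neurons, was listed at 0 in all 3 RCS libraries. Its normalized counts in rib tissue were 637, 712 and 566.5, a level of 9.31 ± 0.16 (SD, n = 3). Fat2, best known from cerebellar granule cells and skin, was listed at 0 in every library but rib tissue replicate 1, where it held 1.52 normalized counts, or 2 reads. Fat2 was therefore not detectable at this depth in 5 of 6 libraries, and no comparison is made for it.

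**Figure D1:**
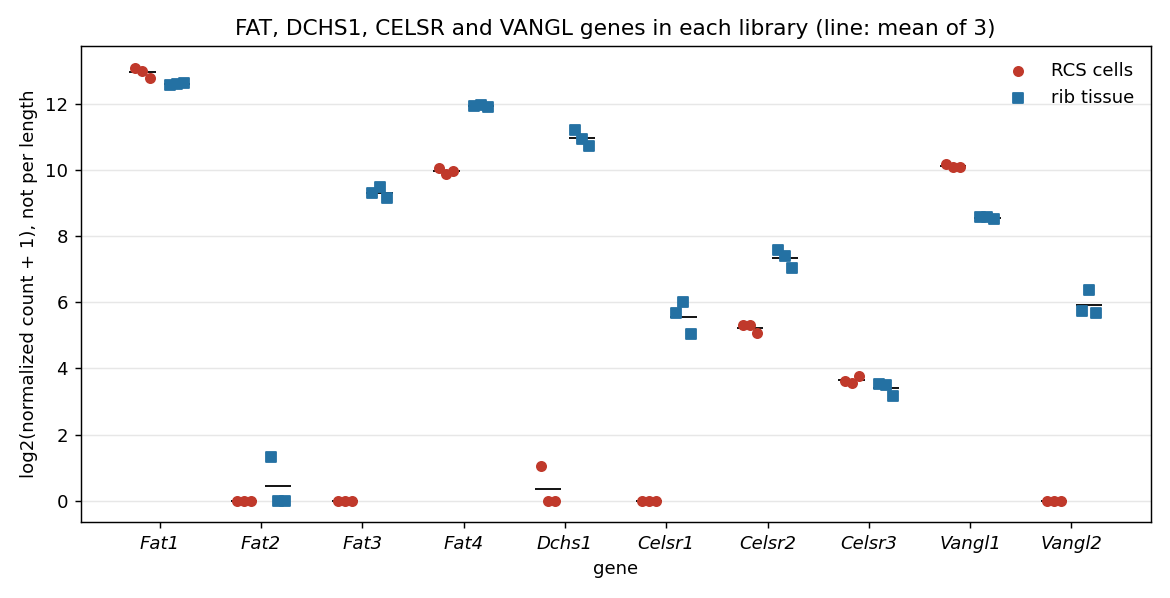
Level of each of the 10 genes in every library, as log2(normalized count + 1) on the vertical axis, with circles for the 3 RCS libraries, squares for the 3 rib libraries and a line at each mean. Fat1 (except under cyclic loess over all genes) and Vangl1 lie higher in RCS cells, Fat4 and Celsr2 lie lower at 9.98 and 5.23 against 11.95 and 7.34, and Dchs1, Fat3, Celsr1 and Vangl2 lie at or near 0 in RCS cells only.

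Taken as a family, the FAT genes summed to 8030 to 9948 normalized counts in RCS cells against 10684 to 11009 in the rib. On this deposited scaling the sums thus did not overlap but lay within 1.5-fold of each other. Sums were not taken under the other scalings, where the difference of Fat1 ran from -0.06 to 1.58, so their order is given for the deposited scaling only. The makeup of the sums differed more. Fat1 made 88.7% ± 1.15 of the sum in RCS cells and 57.7% ± 1.10 in rib tissue (SD, n = 3). Fat4 made 11.3% ± 1.15 against 36.5% ± 0.49, and Fat3 made 0% against 5.89% ± 0.62. The shares are of counts not corrected for length, so they compare the same gene between libraries and are not molar shares.

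CELSR proteins join neighbouring cells by binding each other and carry the core polarity complex. Celsr2 stood at 38.7, 38.5 and 32.8 normalized counts in RCS cells and at 191, 168 and 132 in rib tissue. The lowest rib library was above the highest RCS library, and replicate 3 was the lowest of each group. Levels were 5.23 ± 0.13 and 7.34 ± 0.27 (SD, n = 3), a difference of -2.11 (SE 0.17), 4.33-fold higher in rib tissue. That difference ran from -2.16 after scaling to the library median to -1.50 after quantile normalization.

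Celsr1, best known from epithelia and the neural tube, was listed at 0 in all RCS libraries and at 50.0, 63.6 and 32.0 in rib tissue, a level of 5.58 ± 0.49 (SD, n = 3). These rib values rest on 32 to 66 reads each, so their precision is limited by counting. The epithelial cadherin gene Cdh1 stood at 17.6, 27.7 and 24.5 in the same rib libraries and at 2.08, 0 and 0 in RCS cells. Of 8 epithelial markers, 2 lay lower and 1 (Krt8) higher in RCS cells without overlap, and the list summed to 701 to 759 in RCS cells against 91.9 to 132 in the rib. Krt8 alone made 688.7 to 751.6 of the RCS sums and 60.1 to 74.7 of the rib sums. The part of epithelial cells in the Celsr1 level was not tested.

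Celsr3, best known from developing neurons, was low in both groups, at 11.3, 10.7 and 12.8 normalized counts in RCS cells and 10.6, 10.3 and 8.0 in rib tissue. The lowest RCS value and the highest rib value were nearly equal, and each rested on 21 reads or fewer. The levels were 3.65 ± 0.12 and 3.40 ± 0.20 (SD, n = 3), a difference of 0.25 (SE 0.13). The groups overlapped after scaling to the library median (0.20), while quantile normalization gave 2.73 and cyclic loess 1.68, or 2.85 and 1.90 on the tested genes only.

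VANGL1 and VANGL2 are paired members of 1 family that form complexes with each other at the cell border. Vangl1 stood at 1171, 1107 and 1094 normalized counts in RCS cells and at 382, 382 and 371 in rib tissue. All 3 RCS libraries lay above all 3 rib libraries, and replicates of a group were within 0.10 on the log2 scale. Levels were 10.14 ± 0.05 and 8.57 ± 0.02 (SD, n = 3), a difference of 1.57 (SE 0.03) that was 1.30 to 1.72 under the other scalings.

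Vangl2, the paralogue whose loss leaves the neural tube open in mice, went the other way. No RCS library listed it above 0, and rib tissue held 52.8, 82.0 and 50.6, which is 50.6 to 79.9 reads and a level of 5.94 ± 0.38 (SD, n = 3). Vangl2 made 12.0% to 17.7% of the VANGL counts in rib libraries and 0% in RCS libraries. The VANGL sum was nevertheless higher in RCS cells, with 1094 to 1171 against 422 to 464.

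**Figure D2:**
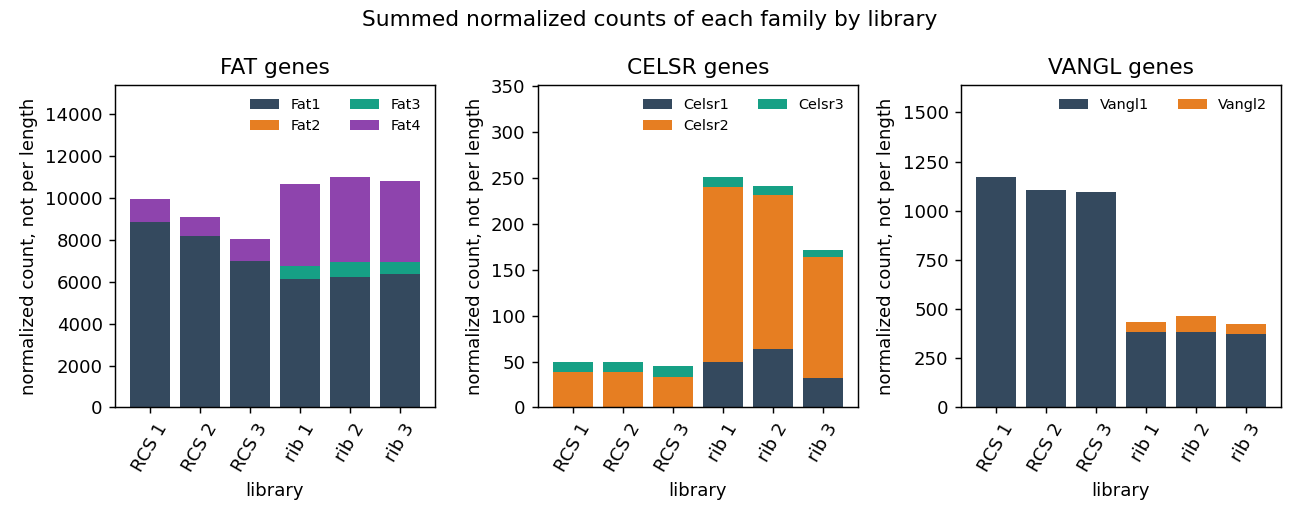
Summed normalized counts (vertical axis, not per length) of the FAT, CELSR and VANGL genes in each of the 6 libraries, with a colour for each gene. Fat4 fills 35.9% to 36.8% of the FAT bars in rib tissue and 10.4% to 12.6% in RCS cells; the CELSR bars are taller in rib tissue and the VANGL bars taller in RCS cells, where no Vangl2 is visible.

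The groups did not overlap for 9 of the 10 genes, with RCS cells above at 3 (Fat1, Celsr3 and Vangl1) and below at 6. Over the 16809 genes tested in the table the groups did not overlap at 78.9%, with RCS cells above at 34.4% and below at 44.5%. Since the genes were listed with these values known, nothing is read from that count. Of the 10 genes, 9 passed the filter on low values (3 or more libraries with 1 normalized count or more) and Fat2 did not. Dchs1, Fat3, Celsr1 and Vangl2 passed through their rib values and so could only come out lower in RCS cells.

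The genes also differed in how even they were among the rib libraries. Fat1, Fat4 and Vangl1 spanned 0.06, 0.06 and 0.04 on the log2 scale over the 3 rib libraries. Dchs1 spanned 0.48, Fat3 0.33, Celsr1 0.97, Celsr2 0.53, Celsr3 0.37 and Vangl2 0.68. Rib tissue replicate 3 was the lowest library for each of these last 6 genes, and by the smaller margins above for Fat4 and Vangl1. The same library was also the lowest of the rib for the summed fibroblast, muscle, endothelial, myeloid and osteoblast markers. The summed Schwann and epithelial markers were lowest in rib tissue replicate 1, and the chondrocyte sum was highest in replicate 3. Celsr3, Celsr1 and Vangl2 rested on 8.0 to 14.0, 32.0 to 66.0 and 50.6 to 79.9 reads per rib library, the fewest of the genes named here. The part of any of these cells, or of counting, in this spread was not tested.

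**Figure D3:**
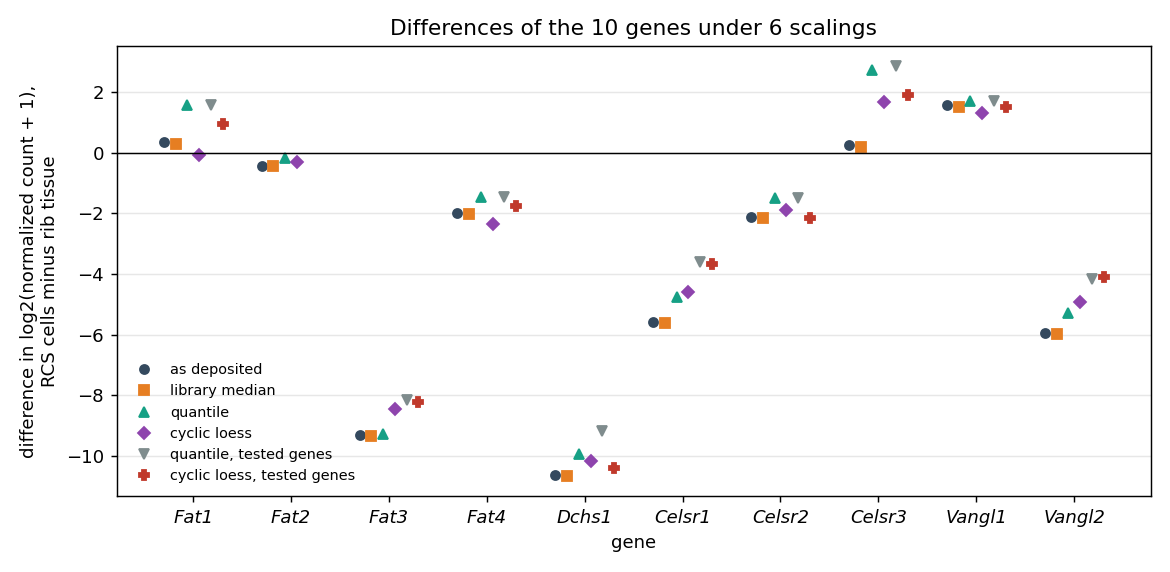
Difference of each of the 10 genes between RCS cells and rib tissue (vertical axis, log2 scale) with the deposited scaling and after 5 others. Fat1 runs from -0.06 (cyclic loess over all genes of the table) to 1.58 and Celsr3 from 0.20 to 2.85, and the other genes keep their sign; Fat2 has no value where quantile normalization or cyclic loess was run on the tested genes because it was not among the genes tested.

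Beyond these genes, 45 other genes of the FAT and planar polarity pathways, in 5 lists by role, were tested between RCS cells and rib tissue with limma over all 16809 genes. These lists, too, were chosen with earlier results of these data known. At a Benjamini-Hochberg adjusted p under 0.05, RCS cells were higher at 9 (20.0%) and lower at 23 (51.1%), and 13 did not pass. The 23 include Fzd6 and Prickle3, which passed the filter through rib tissue only and so could only come out lower. Among all genes tested, 32.9% were higher and 43.6% lower, 76.5% in either direction, and the median difference was -0.21 over the 45 genes and -0.15 over all. Under quantile normalization, which moved the median of all genes by 0.43 towards RCS cells, the split was 15 higher and 17 lower, and over all genes 7785 higher and 5522 lower in place of 5536 and 7324. Cyclic loess gave 6 higher and 26 lower, and over all genes 5744 higher and 7259 lower. On the tested genes only, quantile normalization moved that median by 0.47 and gave 15 and 17 (8000 and 4924 over all genes). Cyclic loess on the tested genes moved that median by 0.18 and gave 8 and 23 (6242 and 6206 over all genes). At 2-fold or more on the deposited scaling, 3 of the 45 were called higher and 8 lower. Over all 16809 genes, these counts were 2369 and 5571.

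Of 7 partners of the FAT and Dachsous cadherins, RCS cells were lower at 4 (57.1%, against 43.6% over all genes tested). They were higher at 1 (14.3%, against 32.9%), and 2 passed in neither direction. Lix1l, a relative of the fly gene lowfat, was at 8.57 ± 0.08 against 9.45 ± 0.12 (n = 3), a difference of -0.88 (SE 0.09, limma adjusted p 3.36e-05, Benjamini-Hochberg). Its paralogue Lix1 was low in both, at 1.35 ± 0.29 and 3.78 ± 0.92 (limma adjusted p 0.00155), and that call was lost under quantile normalization (0.18, limma adjusted p 0.739) and, on the tested genes only, under both quantile normalization (0.32) and cyclic loess (-0.45). Enah, an actin regulator of the Ena/VASP family, was 1.26-fold higher in RCS cells (10.49 ± 0.06 against 10.16 ± 0.06, limma adjusted p 0.00387), a call lost under cyclic loess (-0.02, limma adjusted p 0.829). Dchs2, the paralogue of Dchs1 and singled out after its values were seen, was at 4.71 ± 0.42 against 6.97 ± 0.31, which is -2.25 (SE 0.26, limma adjusted p 7.08e-05). RCS cells thus held counts of this Dachsous gene. Fjx1, which encodes the kinase that tunes FAT4 binding to DCHS1 and was likewise picked out afterwards, was at 7.50 ± 0.15 and 7.27 ± 0.02 and did not pass (0.23, limma adjusted p 0.0816).

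Among 9 core polarity partners, RCS cells were higher at 2 (22.2%, against 32.9% over all genes tested). They were lower at 5 (55.6%, against 43.6%), and 2 passed in neither direction. Of the 5, Fzd6 and Prickle3 passed the filter through rib tissue only and so could only come out lower; their values are given without a test. Fzd6, a Frizzled receptor of the core complex, stood at 8.52 ± 0.19 in rib tissue with a listed 0 for each RCS library (n = 3). Its paralogue Fzd3, picked out after its values were seen, was 1.86-fold higher in RCS cells (7.13 ± 0.13 against 6.23 ± 0.15, limma adjusted p 0.000371). Prickle genes encode cytoplasmic partners of VANGL. Prickle2 was 3.20-fold higher in RCS cells (10.69 ± 0.07 against 9.01 ± 0.18, limma adjusted p 1.82e-06), while Prickle1 was 1.39-fold higher in rib tissue (9.64 ± 0.04 against 10.12 ± 0.20, limma adjusted p 0.00368). Prickle3, also picked out afterwards, was at 0.34 ± 0.59 against 7.42 ± 0.23. Of the Dishevelled genes, which relay Frizzled signals and were also picked out afterwards, Dvl1 (-0.80) and Dvl3 (-0.68) were lower in RCS cells. Dvl2 was at 0.19 without passing the test.

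WNT ligands and co-receptors that feed into planar polarity were divided. Of 10, RCS cells were higher at 3 (30%, against 32.9% over all genes tested). They were lower at 5 (50.0%, against 43.6%), and 2 passed in neither direction. Ptk7, a receptor-like protein needed for planar polarity in mice, was at 2.04 ± 0.14 against 10.01 ± 0.14 in rib tissue, which is -7.97 (SE 0.16, limma adjusted p 1.21e-08). The RCS level of Ptk7 was low, so the size depends on the added count. It was -8.33 with 0.1 added instead of 1, and -6.68 under quantile normalization. Ror2, the WNT5A receptor known from growth plate cartilage, was 2.80-fold higher in rib tissue (8.51 ± 0.19 against 9.99 ± 0.32, limma adjusted p 6.24e-05). Wnt11, a ligand of this branch, was 3.86-fold higher in RCS cells (8.67 ± 0.11 against 6.72 ± 0.11, limma adjusted p 8.42e-07). Fzd7 was 1.55-fold higher in RCS cells (10.38 ± 0.09 against 9.75 ± 0.23, limma adjusted p 0.00149). Wnt5a, picked out after its values were seen, was lower in RCS cells by -0.67 (SE 0.15, limma adjusted p 0.00334) and its relative Wnt5b higher by 1.05 (SE 0.14, limma adjusted p 0.000218).

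Of 7 genes listed as VANGL regulators and SCRIB, RCS cells were higher at 2 (28.6%, against 32.9% over all genes tested). They were lower at 1 (14.3%, against 43.6%), and 4 did not pass. Scrib, a scaffold that binds VANGL2, was 1.65-fold higher in RCS cells (10.35 ± 0.12 against 9.63 ± 0.20, limma adjusted p 0.000583). Sec24b, a coat protein that carries VANGL2 out of the endoplasmic reticulum, differed by -0.27 (SE 0.08, limma adjusted p 0.0141), a call lost without RCS cells replicate 3 (-0.22, limma adjusted p 0.0583). Smurf2, a ubiquitin ligase that acts on PRICKLE1, was at 9.51 ± 0.06 and 9.42 ± 0.09 and did not pass (limma adjusted p 0.296, but 0.0417 under quantile normalization).

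Of 12 effectors of planar polarity, RCS cells were lower at 8 (66.7%, against 43.6% over all genes tested). They were higher at 1 (8.33%, against 32.9%), and 3 passed in neither direction. At 2-fold or more, 0 of the 12 were called lower, against 5571 of the 16809 genes tested. That these shares differ from those over all genes was not tested. Fuz, which acts at the base of the primary cilium, had the largest difference among the called genes of the list, at 6.02 ± 0.02 against 6.76 ± 0.48 (-0.74, SE 0.23, limma adjusted p 0.0169). That call was lost without rib tissue replicate 1 (-0.62) or 2 (-0.59), under quantile normalization (-0.13) and under cyclic loess (-0.53). It was also lost with no filter on low values, where the difference stayed at -0.74 and the limma adjusted p was 0.075. Mapk8, which encodes the kinase JNK1, was 1.26-fold higher in RCS cells (8.60 ± 0.04 against 8.26 ± 0.11, limma adjusted p 0.00649), and that call was lost under cyclic loess (0.18, or 0.16 on the tested genes only). Daam2, a formin relative of the Dishevelled-binding protein DAAM1, and the small GTPase gene Rac1 are named by their mean counts, which are not corrected for length. Daam2 was at 9.77 ± 0.10 and 9.85 ± 0.18 and Rac1 at 9.81 ± 0.11 and 9.77 ± 0.09, and neither passed in limma (Benjamini-Hochberg adjusted p 0.508 and 0.68). Rac1 was called higher under quantile normalization (0.20) and lower under cyclic loess (-0.27), where Daam2 was also called lower (-0.39).

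**Figure D4:**
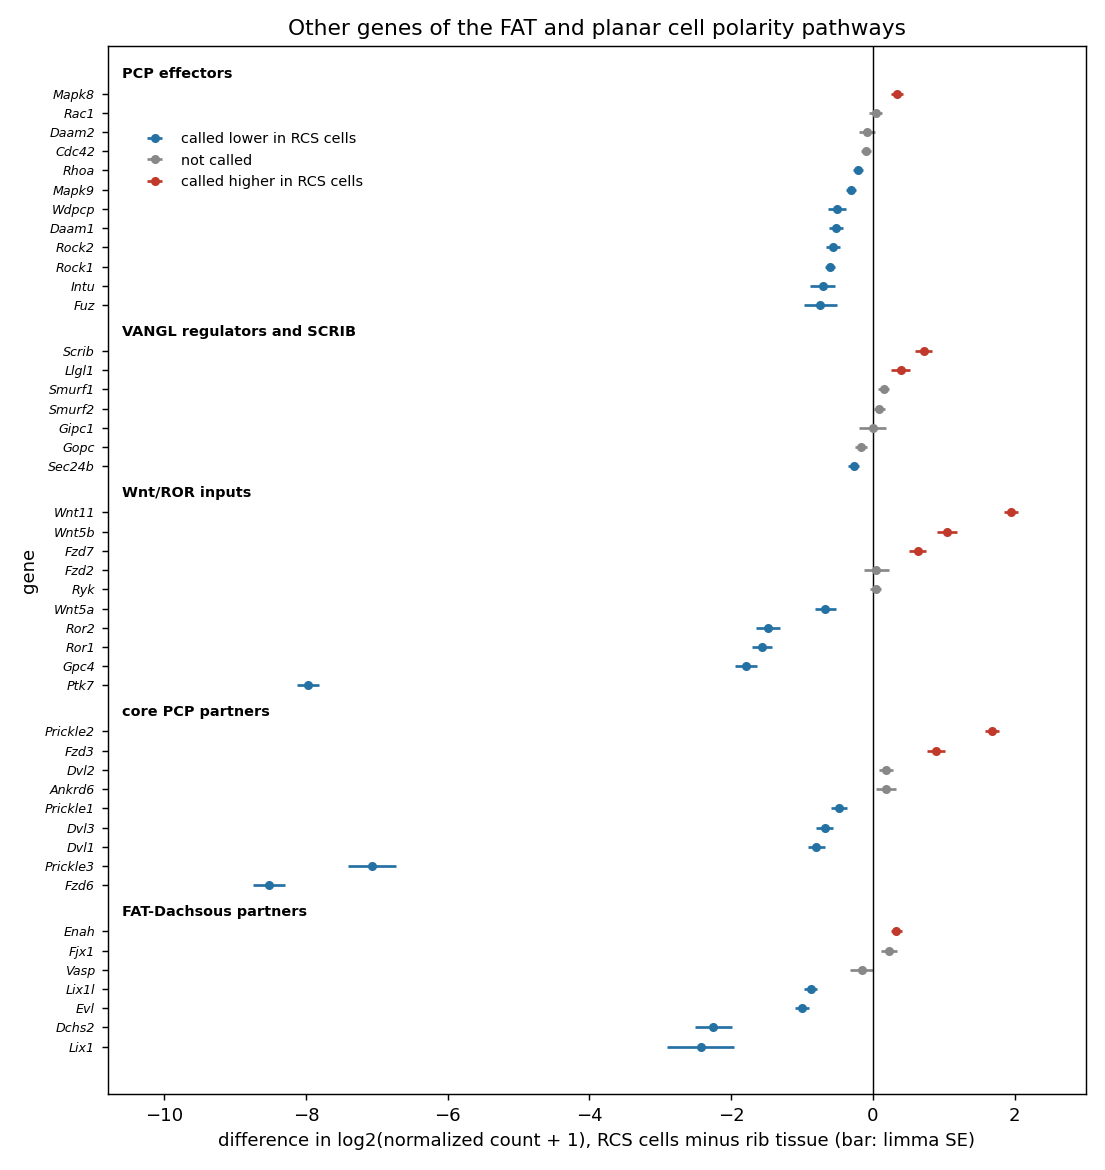
Difference in log2(normalized count + 1) between RCS cells and rib tissue (horizontal axis, bars give the limma SE) for 45 other pathway genes, grouped by role and coloured by call. Fzd6, Ptk7 and Prickle3 stand apart at -8.52, -7.97 and -7.07, and the genes of VANGL regulation and the effectors lie between -0.74 and 0.72.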

How the data were processed

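RNA from RCS cells and from neonatal rat rib was sequenced, with 3 libraries each, grouped and numbered by their titles. The authors deposited 1 table of log2 values. Once raised to a power of 2, the commonest small values of a library are multiples of a shared unit, the same for many genes. The deposited log2 values were therefore read as log2 of reads divided by 1 factor per library, not divided by length, although the table's name carries a unit per length. Values of 1 or less are listed as 0. The submitters' processing notes name CASAVA 1.8, DESeq and the build rn5 without saying what each did. Aligner, counting rule and strand setting: not given in the sources used here, so reads of overlapping genes may not be told apart. Only 38.7% to 55.6% of the values up to 10 reads came within 0.01 of a whole read, which is too few for a count model.

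The test was limma 3.58.1 (R 4.3.3; two-sided, moderated with a trend) on log2(normalized count + 1) of the 16809 genes that reached 1 normalized count in 3 or more libraries, with Benjamini-Hochberg adjustment over all of them. The fit was tested on simulated data. No fold is given for a group mean under 10. No library pair was identical (0 pairs). The 10 genes and all lists were chosen with earlier results of these data known. Of 46 pathway names 45 matched the table, and of 69 marker entries 68, with Prickle4 and Ttn not analysed here. Named pathway genes were the 2 with the highest mean in each list and the called gene with the largest difference in each direction. Dchs2, Fjx1, Fzd3, Prickle3, Dvl1, Dvl2, Dvl3, Wnt5a and Wnt5b were added after their values were seen. Alternatives were other scalings, filters, a pseudocount of 0.1, array weights, a replicate block and each library left out. Quantile normalization and cyclic loess were run over all genes of the table. After those values were seen, both were also run on the tested genes only, since genes at 0 in every library enter the first form; this second form was chosen after seeing the data.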

Additional observations from a re-analysis of the deposited data

How the results depend on the processing

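The counts of the 10 genes without overlap were 2 to 3 above and 6 below in the alternatives run, with Celsr3 lost under scaling to the library median and Fat1 under cyclic loess. Among the other pathway genes, the count higher in RCS cells moved from 9 to 15 under quantile normalization, also on the tested genes only, a form chosen after seeing the data. Leaving out 1 library gave 8 to 9 higher and 20 to 23 lower. Over all genes it gave 4778 to 5546 higher and 5064 to 7049 lower. Fzd6, listed at 0 in RCS cells, could not pass the filter where a rib library was left out, which lowers the count of lower genes. Lix1 turned from -2.43 to 0.18 under quantile normalization, and to 0.32 on the tested genes only. Cyclic loess turned Fat1 from 0.35 to -0.06, Enah from 0.33 to -0.02 and Rac1 from 0.04 to -0.27. The cause was not tested. Of the single named pathway genes under all alternatives, 249 values stayed on their side of the threshold, 10 fell short of it, 5 newly passed it and 4 turned with a call on either side. Of the 249, 6 changed sign without a call, all of Daam2, Rac1 or Smurf2. For the 10 genes, 80 differences moved by no more than the spread between replicates, 37 by more and 1 turned (Fat1). Leaving out 1 library gave 0.28 to 0.45 for Fat1, -2.02 to -1.92 for Fat4, 1.54 to 1.59 for Vangl1 and 0.13 to 0.32 for Celsr3. With a replicate block, 9 pathway genes were higher and 22 lower (5536 and 7340 over all genes). The labels give the replicate numbers no shared source, and deviations of same-numbered libraries correlated at 0.064, -0.076 and 0.047, so the numbers were not taken to pair the samples. Division by coding length was not run, since no transcript lengths were at hand. Depth limits Celsr1, Celsr3 and Vangl2, which rest on 80 reads or fewer in every library, and genes listed at 0 were not detectable at this depth rather than shown to be absent.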
